A study of Mus musculus with 11 samples.

Results

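The paralogs of the DBHS family (Drosophila behaviour and human splicing) and their partners in the paraspeckle were followed in mouse fibroblasts that lacked Nono, Xap5 or Sox5. The set was 9 named genes, taken from the gene table by symbol: the DBHS paralogs Nono, Sfpq and Pspc1, the nuclear long noncoding RNAs Neat1 and Malat1, and the RNA-binding partners Rbm14, Matr3, Tardbp and Cpsf6. Of these 9, 7 had a row among the 21684 genes of the table, and all 7 were among the 13332 genes that passed the filter on low counts. Neat1 and Malat1 had no row by symbol or by identifier and are not analysed here, so the RNA scaffold of the paraspeckle stands outside every result. The cells were NIH/3T3, an established line of mouse embryonic fibroblasts. They were grown for 24 h and then kept without serum for 24 h, and such starvation induces primary cilia. There were 11 libraries: 2 of wild type (WT) and 3 each of the Xap5 KO, Nono KO and Sox5 KO lines, and the labels state the same starvation for all of them. The labels name neither the means of knockout nor separate clones, so each knockout may be 1 clone, and p-values measure only the spread between libraries that may be technical replicates. Xap5 is carried in the table under the mouse symbol Fam50a. According to the submitters' design text, the study asked which genes the 3 proteins control during ciliogenesis.

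As background, the DBHS proteins share paired RNA recognition motifs, a NOPS domain and a coiled coil, and work as homodimers and heterodimers with one another. They bind RNA and DNA, take part in transcription, splicing and DNA repair, and gather on the long Neat1 transcript to build paraspeckles, bodies beside nuclear speckles that can hold back edited RNAs. Sfpq and Nono are needed to stabilise the long Neat1 transcript, Pspc1 is the classic marker of these bodies, and Rbm14 is needed for their assembly. Matr3 and Tardbp (TDP-43) are abundant nuclear RNA-binding proteins, and Cpsf6 is a subunit of cleavage factor I, which steers the choice of polyadenylation site.

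The promoters of the 3 paralogs and of Rbm14 are shown because these genes moved in different directions in the knockouts, and because Sfpq and Rbm14 fell together in the Sox5 KO. The windows run from 250 bases before to 50 bases after the start and come from RefSeq on build GRCm38.p6, which is not the GRCm39 build that the submitters' processing notes name. They lie at chrX:101429401-101429700 (plus strand), chr4:127021051-127021350 (plus), chr14:56778269-56778568 (minus) and chr19:4811585-4811884 (minus), and are written from 5′ to 3′ with motif matches in capitals.
Nono: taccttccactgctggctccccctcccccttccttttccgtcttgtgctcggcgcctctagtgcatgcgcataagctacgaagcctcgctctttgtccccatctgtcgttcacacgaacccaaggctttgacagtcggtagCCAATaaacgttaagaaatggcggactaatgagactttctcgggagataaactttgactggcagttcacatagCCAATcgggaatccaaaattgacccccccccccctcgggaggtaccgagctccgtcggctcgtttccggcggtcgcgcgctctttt
Sfpq: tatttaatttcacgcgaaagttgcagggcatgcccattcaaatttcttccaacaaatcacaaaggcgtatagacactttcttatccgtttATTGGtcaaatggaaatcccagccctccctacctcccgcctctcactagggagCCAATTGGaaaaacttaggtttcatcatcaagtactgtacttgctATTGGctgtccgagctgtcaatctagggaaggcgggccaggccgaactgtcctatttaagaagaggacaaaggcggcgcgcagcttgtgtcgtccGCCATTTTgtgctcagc
Pspc1: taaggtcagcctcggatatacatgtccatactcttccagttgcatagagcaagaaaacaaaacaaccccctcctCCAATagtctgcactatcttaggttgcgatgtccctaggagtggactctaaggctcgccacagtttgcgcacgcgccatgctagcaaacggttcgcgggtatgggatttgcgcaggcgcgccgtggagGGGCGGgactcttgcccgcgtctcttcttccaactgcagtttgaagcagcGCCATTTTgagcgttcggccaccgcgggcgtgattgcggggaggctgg
Rbm14: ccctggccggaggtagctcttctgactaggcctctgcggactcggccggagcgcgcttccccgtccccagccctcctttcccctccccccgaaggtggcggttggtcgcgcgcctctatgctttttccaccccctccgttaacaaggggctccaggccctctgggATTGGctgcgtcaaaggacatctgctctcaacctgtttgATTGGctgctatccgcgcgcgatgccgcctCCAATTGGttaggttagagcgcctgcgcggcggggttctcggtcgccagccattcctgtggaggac
The letters searched on both strands were CCAAT (the CCAAT box), GGGCGG (the GC box), AACAAT (a core bound by Sox proteins) and GCCATNTT (a core like that of YY1, added after the windows had been read). The Nono window held CCAAT at -109 and -36, and the Sfpq window held it at -160, -107, -104 and -62, where the matches at -107 and -104 overlap. Pspc1 had CCAAT at -176 and GGGCGG at -48, and Rbm14 had CCAAT at -85, -46, -16 and -13, the last pair also overlapping. GCCATNTT lay just after the start in Pspc1 (position 3) and Sfpq (position 34) and in neither of the other windows. Over all 32851 windows of the same length, CCAAT was present in 37.4%, GGGCGG in 35.7%, AACAAT in 10.7% and GCCATNTT in 6.05%. None of the 7 windows available for the named genes held AACAAT. Cpsf6 was also called lower in the Sox5 KO. Its window, not shown, held no CCAAT, unlike those of Sfpq and Rbm14, and had GGGCGG at -39 and -11. CCAAT was also present for Nono, which was called higher in the Sox5 KO, and for Pspc1, which was not called there. The windows of Malat1 and Tardbp, also not shown, held no CCAAT, and that of Tardbp had GGGCGG at -142, -120 and -111. Any part of these motifs in the changes was not tested. GC content was 55.7% for Nono, 48% for Sfpq, 57% for Pspc1 and 64.7% for Rbm14.

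The libraries held between 30205878 and 43498383 counts, of which 6.06% to 10.3% came from mitochondrial genes. All 8 fibroblast markers fixed for the check were above 1 CPM (a gene's counts relative to the TMM-scaled library total) in every group, but their summed level was 46700 to 51400 CPM in the Nono KO libraries against 17500 to 23000 CPM in the other 8. Markers of epithelium, endothelium, muscle, neuron and glia, blood and adipocyte summed to at most 10.9 CPM in any library and cell type, with blood markers at 7.25 to 10.9 CPM in the Nono KO against 1.88 to 3.38 CPM in the other groups. The part of these marker differences in the results was not tested. In bulk RNA, fewer cells of a kind and less RNA per cell cannot be told apart. Fam50a kept 12.1% ± 0.36 (SD, n = 3) of its WT level in the Xap5 KO. Sox5 kept 28.1% ± 1.58 in the Sox5 KO, and it was also at 28.7% ± 3.39 in the Xap5 KO and 16.3% ± 1.86 in the Nono KO (n = 3 each), so its RNA level alone does not tell the Sox5 KO from the other knockouts.

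Nono RNA was nearly lost in its own knockout and modestly higher in both other lines. Its level, in CPM scaled by TMM factors, was 357 and 351 in the WT libraries and 34.0, 34.0 and 27.6 in the Nono KO libraries. The ranges lay far apart, and the KO libraries kept 8.99% ± 1.05 (SD, n = 3) of the WT mean, or -3.47 in log2 with a standard error of 0.0791 (edgeR quasi-likelihood test, adjusted p = 2.44e-18 over all tested genes). The remaining counts cannot be assigned with certainty, because a processed pseudogene of Nono, Gm8806, matches its transcript at 97.2% identity over 1419 bases and has no row of its own. In the Xap5 KO libraries Nono stood at 448, 447 and 415 CPM, and in the Sox5 KO libraries at 409, 462 and 444 CPM. All 6 values lay above both WT values, with log2 fold changes of 0.30 (SE 0.0753, adjusted p = 0.00246) and 0.31 (SE 0.0754, adjusted p = 0.00137). These lines did not differ from each other in Nono by the test, with a difference of -0.01 and a 95% interval from -0.137 to 0.126 on the log2 scale, although the chromosome offset gave a called difference of -0.24 (adjusted p = 0.00343). Nono lies on chromosome X, whose 437 other tested genes had a median log2 fold change of 0.356 in the Xap5 KO, 0.134 in the Sox5 KO and -0.331 in the Nono KO. Measured against the median of its chromosome, Nono was at -0.06 in the Xap5 KO (adjusted p = 0.589), so that rise was no longer called. In the Sox5 KO the rise was lost with an offset for gene length and GC content, at 0.11 (adjusted p = 0.188), and it was 0.18 (adjusted p = 0.0369) with the chromosome offset.

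Pspc1 was the paralog that rose when Nono was lost. WT libraries held 20.4 and 22.1 CPM and Nono KO libraries 51.6, 50.8 and 54.5 CPM, so every Nono KO library was above every other library of the series. The rise was 2.46-fold, or 1.30 in log2 (SE 0.121, adjusted p = 1.31e-08), and it was larger in size than that of 87.9% of all tested genes. Libraries of the Xap5 KO were at 22.5, 16.4 and 17.8 CPM and those of the Sox5 KO at 22.5, 18.5 and 19.4 CPM. Both of these ranges overlapped WT, and neither change passed the test, at -0.17 (adjusted p = 0.266) and -0.08 (adjusted p = 0.601). Without Xap5 KO replicate 1, its highest library, the Xap5 KO value was called lower (-0.32, adjusted p = 0.0226). Tested directly, Pspc1 was higher in the Nono KO than in the Xap5 KO by 1.47 (SE 0.106, adjusted p = 2.56e-10) and than in the Sox5 KO by 1.38 (SE 0.107, adjusted p = 3.67e-10). The Xap5 KO and Sox5 KO differed by -0.09 (95% interval -0.303 to 0.12), which was not called. It was called with opposite signs with the chromosome offset (0.26, adjusted p = 0.0479) and without Xap5 KO replicate 1 (-0.24, adjusted p = 0.0496). The 460 other genes of chromosome 14 had a median of 0.0364 in the Nono KO, and the 20 nearest tested neighbours of Pspc1 had a median of 0.0247. Over all 22 alternative settings the rise stayed between 1.14 and 1.37 and was called each time. No other gene's exons overlap those of Pspc1 and no close copy of it was found.

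**Figure D1:**
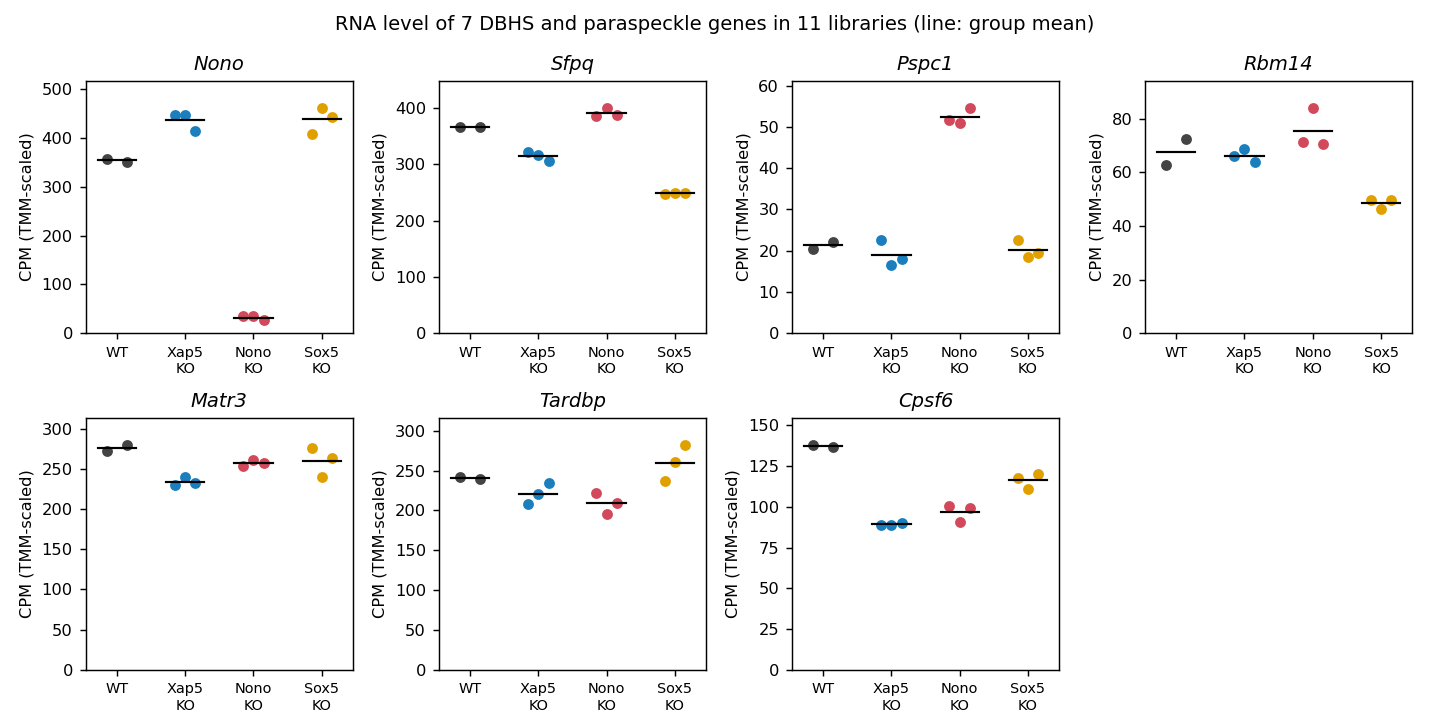
RNA level of the 7 measured genes in CPM scaled by TMM factors (vertical axes from 0, a separate scale for each gene) in the 11 libraries, by group, with points for libraries and lines for group means. Nono falls from 357 and 351 CPM in WT to 27.6 to 34.0 CPM in the Nono KO, where Pspc1 reaches 50.8 to 54.5 CPM and Sfpq 386 to 400 CPM.

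Sfpq, a dimer partner of Nono, did not pass the test in the Nono KO and fell in both other lines. WT libraries were at 366 and 366 CPM and Nono KO libraries at 386, 400 and 387 CPM. The Nono KO values all lay above WT, but by a log2 fold change of only 0.10 (SE 0.0534, 95% interval -0.00934 to 0.2), which missed the threshold (adjusted p = 0.151). DESeq2 put the same change past it (0.11, adjusted p = 0.0348), as did a fit of the compared groups alone (0.12, adjusted p = 0.0479), and with library totals as the only scaling its sign turned (-0.07, adjusted p = 0.265). Sfpq was at 323, 317 and 306 CPM in the Xap5 KO and in the Sox5 KO at 247, 250 and 249 CPM. Neither range reached WT, and the log2 fold changes were -0.22 (SE 0.053, adjusted p = 0.00218) and -0.56 (SE 0.0529, adjusted p = 9.51e-09). Each knockout differed from the others in Sfpq: the Nono KO was above the Xap5 KO by 0.31 (adjusted p = 1.21e-05) and above the Sox5 KO by 0.65 (adjusted p = 1.54e-10), and the Xap5 KO was above the Sox5 KO by 0.34 (adjusted p = 2.5e-06). The first was 0.20 with library totals alone and the second 0.41 with the chromosome offset, both called. The 20 nearest tested genes had a median of 0.0649 in Nono KO against Xap5 KO. Their median was 0.767 in Nono KO against Sox5 KO and 0.84 in Xap5 KO against Sox5 KO, in both more than Sfpq itself. The chromosome offset takes off only the median of all chromosome 4, which was 0.256 in Nono KO against Sox5 KO. In the Sox5 KO the neighbourhood of Sfpq on chromosome 4 was also low: 18 of its 20 nearest tested genes were lower than in WT, with a median of -0.692. With the median of chromosome 4 taken off, the fall in the Sox5 KO was -0.32 and still called, while the difference between Xap5 KO and Sox5 KO was 0.05 (adjusted p = 0.392).

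The 3 paralogs can be set side by side only per length, as CPM per kilobase of the longest annotated transcript. On that scale WT cells held 249 ± 1.56 (SD, n = 2) in sum, of which Nono made up 55.5%, Sfpq 42.4% and Pspc1 2.07%. Nono and Sfpq ranked at the 98th and 97.1th percentile of all tested genes in WT, and Pspc1 at the 39.5th. In the Nono KO the sum was 138 ± 2.76 (n = 3), 55.4% of WT, and was made of 81.8% Sfpq, 9.22% Pspc1 and 9.00% Nono. The Pspc1 share was 9.22% ± 0.511 in the Nono KO against 2.07% ± 0.135 in WT, and the ranges did not overlap. The loss of Nono from the sum by itself raises the shares of Sfpq and Pspc1. These shares are therefore no separate measure of a change in either paralog. The group means changed by -126 for Nono, 7.21 for Sfpq and 7.55 for Pspc1 in CPM per kilobase. The rise of Pspc1 therefore amounted to 6% of the fall of Nono on this scale, and to 9.64% in CPM with no length. The Sfpq change did not pass the test. The sum was 265.9 ± 10.2 in the Xap5 KO, where every library lay above WT (2-sided exact permutation test, p = 0.2). It was 247.7 ± 10.2 in the Sox5 KO, where the range overlapped WT (n = 3 each). Nono took 64.1% in the Xap5 KO and 69.0% in the Sox5 KO, and Sfpq 34.2% and 29.0%. The ratio of Nono to Sfpq was 1.31 in WT, 1.87 in the Xap5 KO, 2.38 in the Sox5 KO and 0.11 in the Nono KO, with no overlap between any knockout and WT. For each of these ratios a 2-sided exact permutation test against WT gave p = 0.1, the smallest that 3 libraries against 2 allow. Nono is the targeted gene of the Nono KO, so the outcome for that ratio was fixed by the design and is no result. For the Xap5 KO ratio, the rise of Nono was not called with the chromosome offset (-0.06, edgeR adjusted p = 0.589). The Pspc1 share in WT moved to 2.87% by counts with no length and to 1.27% with the median transcript length, and in the Nono KO to 11.0% and 5.58%. In the Nono KO, Pspc1 and the remaining Nono were nearly equal in CPM per kilobase, at 12.72 and 12.43. By CPM with no length, Pspc1 was at 1.64 times Nono there. The remaining Nono counts cannot be assigned with certainty, as given above.

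**Figure D2:**
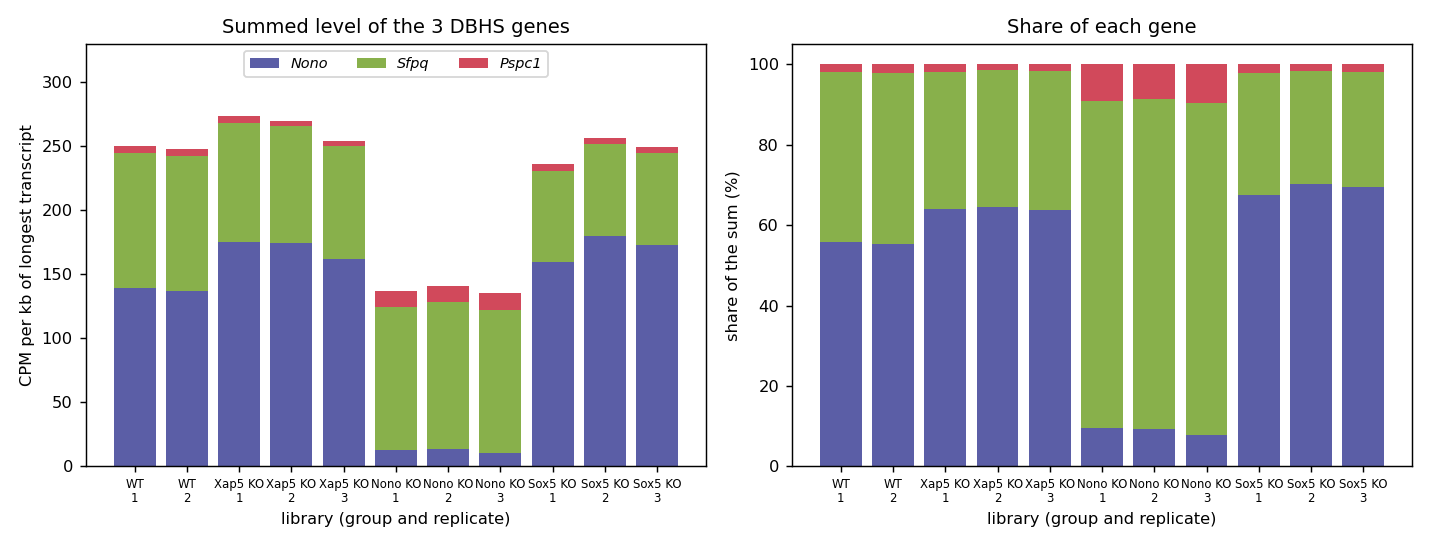
Stacked bars for Nono, Sfpq and Pspc1 in each of the 11 libraries: CPM per kilobase of the longest transcript on the left, and percent of their sum on the right. The sum is 138 in the Nono KO against 249 in WT, and the Pspc1 share is 9.22% against 2.07%, where the loss of Nono by itself raises the other shares.

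Among the partners, Cpsf6 was lower than WT in all 3 knockouts. Its WT libraries were at 138 and 137 CPM, the Nono KO libraries at 101, 90.6 and 99.4, the Xap5 KO libraries at 89.1, 89.1 and 90.1, and the Sox5 KO libraries at 118, 111 and 120 CPM. No knockout library reached a WT value. The log2 fold changes were -0.50 (SE 0.0616, adjusted p = 7.09e-07) in the Nono KO, -0.62 (SE 0.0616, adjusted p = 4.67e-08) in the Xap5 KO and -0.24 (SE 0.0619, adjusted p = 0.00221) in the Sox5 KO. Tested directly, Cpsf6 differed from the Sox5 KO by -0.27 in the Nono KO (adjusted p = 0.000291) and by -0.38 in the Xap5 KO (adjusted p = 4.86e-06). The difference between Nono KO and Xap5 KO was 0.11 (adjusted p = 0.0915), and it was called with the opposite sign under the chromosome offset (-0.23, adjusted p = 0.00217) and higher with DESeq2 (0.14, adjusted p = 0.0415) and the length and GC offset (0.20, adjusted p = 0.00241). The chromosome that carries Cpsf6, chromosome 10, was low as a whole in these lines, with medians over 642 other genes of -0.135, -0.463 and -0.324 in the same order. Around Cpsf6 itself, 18 of the 20 nearest tested genes were lower in the Xap5 KO, with a median of -0.565. Against the chromosome median, the fall in the Nono KO was still called at -0.37, the Xap5 KO value was -0.14 (adjusted p = 0.0764) and the Sox5 KO value was 0.06 (adjusted p = 0.455). The length and GC offset turned the Sox5 KO value to 0.19 (adjusted p = 0.00652).

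Rbm14, a paraspeckle protein with an RNA-binding and a prion-like part, fell in the Sox5 KO. WT libraries held 63.0 and 72.7 CPM, Sox5 KO libraries 49.9, 46.5 and 49.8, Xap5 KO libraries 66.3, 68.7 and 63.8, and Nono KO libraries 71.4, 84.1 and 70.6 CPM. The Sox5 KO values lay below all others, a log2 difference of -0.48 from WT (SE 0.0852, adjusted p = 5.44e-05). It was also lower there than in the Nono KO by 0.63 (adjusted p = 3.68e-07) and than in the Xap5 KO by 0.44 (adjusted p = 3.94e-05). Its surroundings on chromosome 19 went the other way in the Sox5 KO, with a median of 0.574 over the 20 nearest genes, and with the chromosome offset the fall was -0.87. Ranges in the Xap5 KO and Nono KO overlapped WT, with log2 fold changes of -0.03 (adjusted p = 0.78) and 0.15 (adjusted p = 0.151). The Nono KO value was called higher with the chromosome offset (0.25, adjusted p = 0.0251) and with the length and GC offset (0.23, adjusted p = 0.0264), and was -0.01 with library totals alone. Rbm14 shares 727 exonic bases on the same strand with the readthrough gene model Gm21992, which held 93 to 193 counts a library, so the counting could have split them.

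Matr3 was called in the Xap5 KO and Tardbp in the Nono KO, both lower. WT libraries held 273 and 280 CPM of Matr3 and Xap5 KO libraries 230, 240 and 233 CPM, where no value reached WT and the log2 difference was -0.24 (SE 0.0601, adjusted p = 0.00247). In the Nono KO its libraries were at 254, 262 and 258 CPM and in the Sox5 KO at 276, 240 and 264 CPM, and neither change passed the test (-0.10, adjusted p = 0.179, and -0.09, adjusted p = 0.215). With library totals alone both were called lower, at -0.26 (adjusted p = 0.00115) in the Nono KO and -0.20 (adjusted p = 0.00764) in the Sox5 KO, whereas the length and GC offset put the Sox5 KO value at 0.32 (adjusted p = 5.38e-05). Between knockouts, Matr3 differed by -0.15 in Xap5 KO against Sox5 KO (adjusted p = 0.0192). That call was lost with library totals alone (-0.09, adjusted p = 0.167) and without Sox5 KO replicate 1 (adjusted p = 0.106) or 3 (adjusted p = 0.056), and the value was -0.62 with the length and GC offset. Nono KO against Sox5 KO gave -0.01 for Matr3, not called, and -0.40 (adjusted p = 6.25e-07) with that offset. Exons of the gene models Gm28285 and AC121821.3 overlap those of Matr3, and neither has a row. For Tardbp the WT libraries were at 243 and 240 CPM and the Nono KO libraries at 222, 196 and 210 CPM. That fall of 0.21 on the log2 scale passed the test (SE 0.0724, adjusted p = 0.0229), but not without WT replicate 1 (adjusted p = 0.124), WT replicate 2 (adjusted p = 0.0988) or Nono KO replicate 2 (adjusted p = 0.102). With library totals alone the Nono KO value was -0.37. Tardbp was at 208, 220 and 234 CPM in the Xap5 KO (-0.13, adjusted p = 0.164) and in the Sox5 KO at 237, 261 and 283 CPM (0.11, adjusted p = 0.204). The Sox5 KO value was called higher with the chromosome offset (0.35, adjusted p = 0.000311), the length and GC offset (0.62, adjusted p = 4.95e-08) and without Sox5 KO replicate 1 (0.17, adjusted p = 0.0455), and was -0.01 with library totals alone. Directly against the Sox5 KO, Tardbp differed by -0.32 in the Nono KO (adjusted p = 0.000243) and by -0.24 in the Xap5 KO (adjusted p = 0.00347). The length and GC offset put these at -0.84 and -0.74. Tardbp overlaps 1817 exonic bases of Masp2 on the opposite strand, and Masp2 held only 19 to 81 counts a library.

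**Figure D3:**
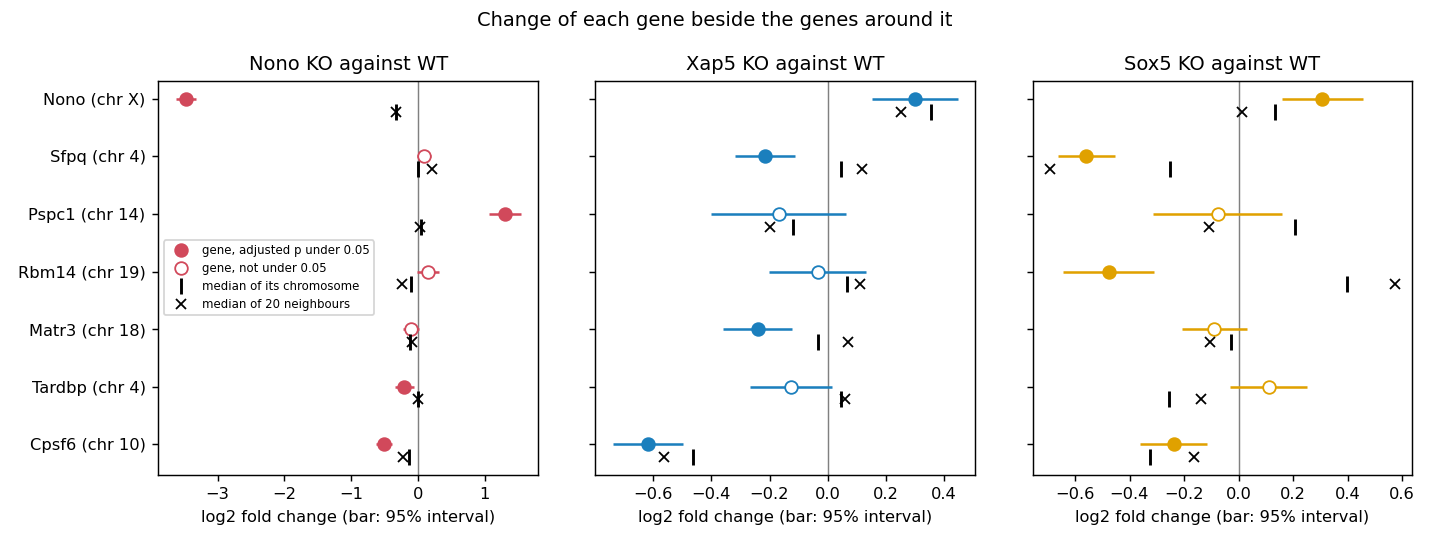
Log2 fold change against WT of each measured gene (horizontal axes, a wider scale in the Nono KO panel) with its 95% interval, beside the median of its chromosome and of its 20 nearest tested genes. Pspc1 stands at 1.30 in the Nono KO with its neighbours at 0.0247, while Sfpq in the Sox5 KO (-0.56) and Cpsf6 in the Xap5 KO (-0.62) stand beside neighbours at -0.692 and -0.565.

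Counted together, 4 of the 7 measured genes were called in each knockout against WT, 1 higher and 3 lower each time. In the Nono KO these were Pspc1 higher and Nono, Cpsf6 and Tardbp lower, where 48.6% of all tested genes were called (23.5% higher and 25.1% lower). In the Xap5 KO they were Nono higher and Sfpq, Matr3 and Cpsf6 lower, where 45.5% of tested genes were called (23.2% higher and 22.3% lower), and in the Sox5 KO Nono higher and Sfpq, Rbm14 and Cpsf6 lower, where 60.9% were called (30.6% higher and 30.3% lower). A count of 4 of 7 is near these backgrounds and is no result about the set. Nono is the targeted gene of the Nono KO, so its call in each comparison of that line was fixed by the design. All counts given for the Nono KO include that call. The 3 comparisons share their WT libraries. The size of 2-fold or more was reached by Nono and Pspc1 in the Nono KO and by no measured gene in the other lines, where 11.2%, 10.3% and 17.2% of tested genes were called at that size in the Nono, Xap5 and Sox5 KO. Between knockouts, 5 of 7 were called in Nono KO against Xap5 KO (background 53%), 6 of 7 in Nono KO against Sox5 KO (63.5%) and 5 of 7 in Xap5 KO against Sox5 KO (61.6%). In the first of these the calls of Rbm14 (0.19, adjusted p = 0.0453) and Matr3 (0.14, adjusted p = 0.0346) lay close to the threshold, and without Xap5 KO replicate 1 neither passed, which left 3. Both were also lost with library totals alone (adjusted p = 0.426 and 0.695) and without some other single libraries. The split between higher and lower genes moved with the scaling: in the Sox5 KO it was 3 higher and 2 lower with the length and GC offset and 2 of each with the chromosome offset, and in the Xap5 KO 0 higher and 2 lower with the chromosome offset.

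**Figure D4:**
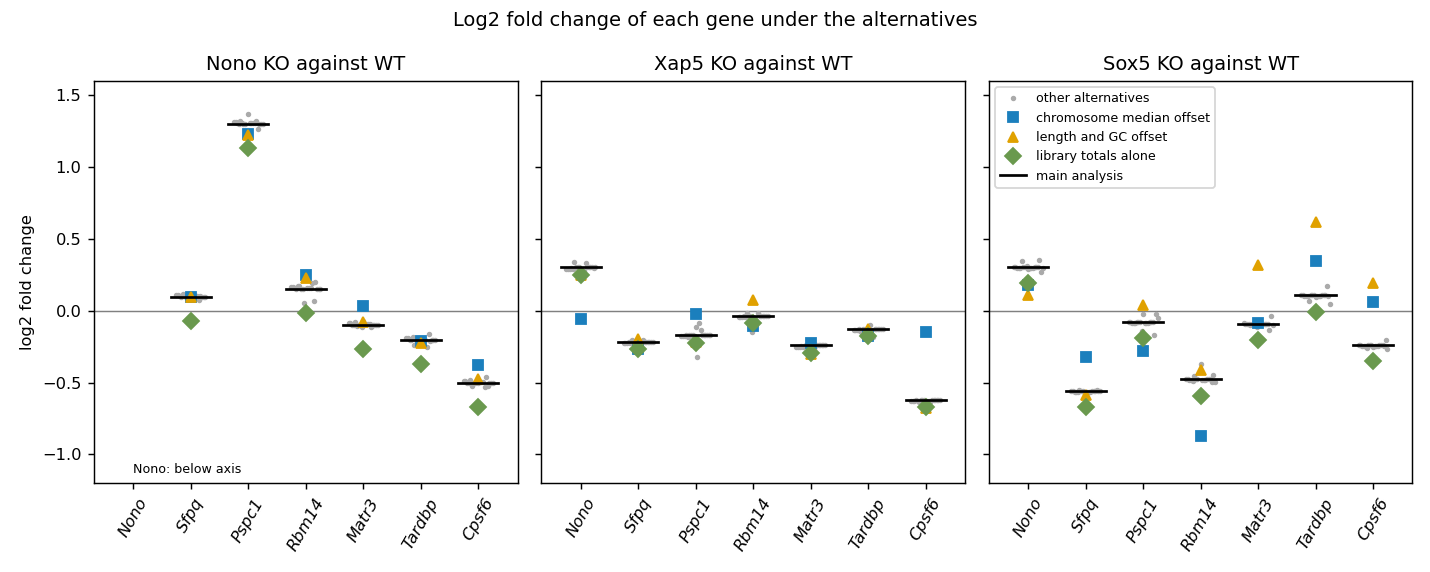
Log2 fold change against WT of the 7 measured genes (vertical axis) under the main analysis (black lines) and the alternatives (points), with the offsets for chromosome and for length and GC and the unscaled library totals marked. Pspc1 in the Nono KO stays between 1.14 and 1.37, while Nono in the Xap5 KO falls to -0.06 with the chromosome offset and Tardbp in the Sox5 KO rises to 0.62 with the length and GC offset.

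The other paraspeckle proteins, a list of 35 genes of which 32 were tested, were called in both directions. In the Nono KO 6 were higher and 11 lower, with a median of -0.131 beside -0.0196 over all tested genes, and in the Xap5 KO 6 were higher and 8 lower (median 0.0295). In the Sox5 KO 11 were higher and 8 lower (median 0.0398). The shares called over all tested genes were 48.6%, 45.5% and 60.9% in the same order, near those of the list, so these counts are no result about it. With library totals alone the splits were 5 and 18, 4 and 9, and 9 and 10 in the same order, as that scaling shifts the median of all genes by -0.164 in the Nono KO and -0.114 in the Sox5 KO, and in the Sox5 KO the chromosome offset gave 9 and 11. Enox1 had the largest rise of the list in the Nono KO, from 6.00 and 5.45 CPM in WT to 21.8, 26.5 and 25.6 CPM (log2 fold change 2.11, SE 0.156, adjusted p = 3.62e-10). Its other values were 3.53 to 4.01 CPM in the Xap5 KO and 7.50 to 8.74 CPM in the Sox5 KO, called lower (-0.58, adjusted p = 0.004) and higher (0.52, adjusted p = 0.00572). The Sox5 KO call of Enox1 was lost with the chromosome offset (adjusted p = 0.0875) and without WT replicate 2 (adjusted p = 0.0625). Fam98a rose in all 3 lines, from 38.5 and 38.0 CPM to 65.1 to 70.0 CPM in the Nono KO (0.83), 56.3 to 57.9 CPM in the Xap5 KO (0.57) and 51.8 to 55.8 CPM in the Sox5 KO (0.49). Fign, a AAA ATPase of the fidgetin family, was low, at 2.58 and 5.38 CPM in WT and 6.09 to 10.05 CPM in the Nono KO (0.98, adjusted p = 0.00592), and was not called without WT replicate 1 (0.56, adjusted p = 0.154), while it was 1.62 without WT replicate 2. The list's called count in the Nono KO was 10 without WT replicate 1.

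Of the 18 cleavage and polyadenylation factors, the complexes to which Cpsf6 belongs, 11 were lower and 0 higher in the Nono KO. Over all tested genes, 48.6% were called in that line in either direction and 25.1% were lower. The list was chosen with earlier results of these data known. The median of the list was -0.268 beside -0.0196 over all tested genes. Of the list, 1 was higher and 7 lower in the Xap5 KO (median -0.133), and in the Sox5 KO 3 were higher and 8 lower (median -0.107). Over all tested genes 45.5% and 60.9% were called in either direction in these lines, near the shares of the list. Counting lower genes only, the shares over all tested genes were 22.3% and 30.3%, less than in the list. The count in the Nono KO was 7 without either WT library, and the Xap5 KO and Sox5 KO splits were 4 and 7, and 6 and 3, with the length and GC offset (the Sox5 KO split was 1 and 10 with library totals alone). Cstf2, the RNA-binding subunit of the cleavage stimulation factor on chromosome X, went from 47.6 and 46.3 CPM in WT to 31.2, 30.5 and 27.7 CPM in the Nono KO (-0.66, SE 0.0929, adjusted p = 5.27e-06). Against the median of chromosome X the fall was -0.27 (adjusted p = 0.0197). Cstf2 was at 132% of its WT mean in the Xap5 KO and at 90.2% in the Sox5 KO. Sympk, the symplekin scaffold, went from 219 and 225 CPM in WT to 155, 173 and 155 CPM in the Nono KO (-0.47, SE 0.0632, adjusted p = 3.05e-06, and -0.29 with the chromosome offset). It was at 106% of WT in the Xap5 KO and 95.6% in the Sox5 KO. Pabpn1, the nuclear poly(A)-binding protein, was lower in the Nono KO (-0.47) and the Xap5 KO (-0.33) and higher in the Sox5 KO (0.83), where it reached 108 to 114 CPM against 63.8 and 61.5 CPM in WT. Its Xap5 KO call was lost with the chromosome offset (-0.19, adjusted p = 0.0507). The other cleavage factor I subunits, Nudt21 and Cpsf7, are given as partners of Cpsf6 in that complex and were chosen after their values were seen. Nudt21 measured 84.6 and 85.5 CPM in the WT libraries and 65.0 to 70.5 CPM in the Nono KO (-0.32, adjusted p = 0.00102). It was at 43.0 to 49.1 CPM in the Xap5 KO (-0.92, adjusted p = 1.43e-09) and at 96.0 to 102 CPM in the Sox5 KO (0.24, adjusted p = 0.00836). With the chromosome offset Nudt21 was at -0.21, -0.55 and -0.01 in the Nono, Xap5 and Sox5 KO, and its Sox5 KO call was also lost with library totals alone (adjusted p = 0.181) and without WT replicate 1 (adjusted p = 0.0661). Cpsf7 was at 114 and 104 CPM in WT and was lower in the Nono KO (-0.32, adjusted p = 0.00021) and in the Xap5 KO (-0.18, adjusted p = 0.02, but 0.228 without WT replicate 1 and 0.0579 without Xap5 KO replicate 2). In the Sox5 KO Cpsf7 was not called (0.14, adjusted p = 0.0628), and it was called lower with the chromosome offset (-0.26, adjusted p = 0.0012).

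**Figure D5:**
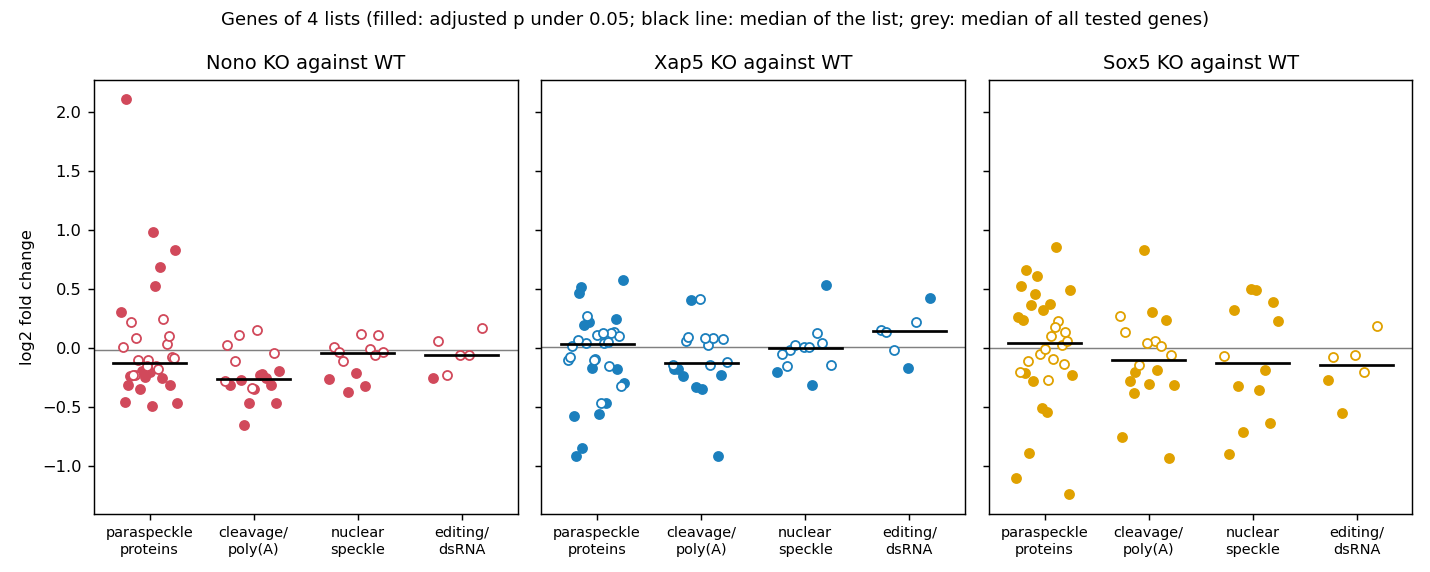
Log2 fold change against WT (vertical axis) of the tested genes of 4 lists in each knockout, filled where called, with the list median in black and the median of all tested genes in grey. In the Nono KO the cleavage and polyadenylation factors have a median of -0.268 and none is called higher, and Enox1 is the highest point at 2.11.

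The remaining lists were short, and their counts stand beside backgrounds of 48.6%, 45.5% and 60.9% of tested genes called in the Nono, Xap5 and Sox5 KO. Of 12 nuclear speckle proteins, 4 were lower and 0 higher there with a median of -0.0486 (8 lower with library totals alone), 1 higher and 2 lower in the Xap5 KO, and 5 higher and 6 lower in the Sox5 KO (3 and 7 with library totals alone). Srrm2, a scaffold of nuclear speckles, measured 995 and 1008 CPM in the WT libraries and 744, 813 and 758 CPM in the Nono KO (-0.38, SE 0.069, adjusted p = 0.000111). That was 77% of its WT mean, beside 101% in the Xap5 KO and 61% in the Sox5 KO, so Srrm2 was lowest in the Sox5 KO. Bclaf1 and Acin1 were lower in the Nono KO (-0.33 and -0.26, or -0.20 for Bclaf1 with the chromosome offset and -0.17 for Acin1 with the length and GC offset). Bclaf1 was at 79.7%, 80.3% and 78% of WT in the Nono, Xap5 and Sox5 KO. Acin1 was at 83.4%, 86.7% and 95.2% in the same order. Of 6 RNA editing and double-stranded RNA partners (median -0.0594) 1 was lower in the Nono KO, namely Adar, the editing enzyme whose products paraspeckles can retain, at 61.0, 58.2 and 62.3 CPM against 71.0 and 73.9 CPM in WT (-0.26, adjusted p = 0.00371, but 0.0628 without WT replicate 2 and 0.0743 with the length and GC offset). The same list in the Xap5 KO had 1 higher and 1 lower, and in the Sox5 KO 0 higher and 2 lower. Adar was as low in the Sox5 KO, at 82.8% of its WT mean beside 83.6% in the Nono KO, and at 111% in the Xap5 KO. Of 5 transcriptional regulators of Neat1 (median 0.0906), Hif1a alone was called in the Nono KO, at 332, 314 and 361 CPM against 197 and 196 CPM in WT (0.78, SE 0.0661, adjusted p = 3.34e-09). In the Xap5 KO 0 of the 5 were called, with Hif1a at 193 to 204 CPM, and in the Sox5 KO 2 were higher and 3 lower. Only Tug1 of 9 other nuclear noncoding RNAs had a row, and the others are not analysed here. Tug1 was at 216, 216 and 225 CPM in the Nono KO against 187 and 195 CPM in WT (0.20, adjusted p = 0.0206). That call was lost without Nono KO replicate 3 (adjusted p = 0.0565) and with library totals alone (adjusted p = 0.698). The value was 0.17 without WT replicate 1. In the Sox5 KO Tug1 was called lower (-0.43), at 74.3% of WT, and in the Xap5 KO it was not called (-0.03). Slc7a2, whose long isoform is the best-known RNA held in paraspeckles, was at 153 and 166 CPM in WT and 142 to 160 CPM in the Nono KO, a change of -0.09 that was not called (adjusted p = 0.308) but was called lower with library totals alone (-0.26, adjusted p = 0.00691). It fell in the Sox5 KO to 44.5, 53.3 and 51.1 CPM (-1.68, SE 0.0745, adjusted p = 6.21e-14) and by 0.34 in the Xap5 KO (adjusted p = 0.000678), where the chromosome offset left 0.02 (adjusted p = 0.837). A gene table cannot separate its retained isoform from the coding one.

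Among the measured genes themselves, Sfpq and Rbm14 had the most alike patterns over the 11 libraries, with a root mean square difference of 0.0974 in log2 CPM centred on each gene's mean. Matr3 and Tardbp followed at 0.156, and Nono and Pspc1 were the least alike pair at 2.29. The distance is not scaled to the spread of each gene, so genes that change little come out close. Every pair with Nono, the targeted gene of the Nono KO, stood at 1.57 or more. The genes of the whole table nearest to Pspc1 were Ndrg1 (0.126), Hspa4l (0.177) and Exoc6 (0.184). Ndrg1 went from 49.8 ± 1.07 CPM (n = 2) in WT to 122 ± 6.38 CPM (n = 3) in the Nono KO, 246% of WT, and was at 92.8% and 99.3% of WT in the Xap5 KO and Sox5 KO. Hspa4l was at 207% of WT in the Nono KO and Exoc6, a low gene at 2.11 CPM in WT, at 209%. Nearest to Sfpq were Tgfbr3 (0.0532), Slc30a7 (0.0538) and Crkl (0.0566), which stood at 106%, 110% and 105% of WT in the Nono KO and at 64.5%, 65.4% and 65.0% in the Sox5 KO. Nearest to Nono, at a much greater distance, were Gsdmd (0.385) and the X-linked genes Nap1l2 (0.415) and Gabre (0.437), at 17.2%, 11.4% and 13.8% of WT in the Nono KO. These likenesses are descriptions over 11 libraries of 4 groups.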

How the data were processed

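Gene counts of 11 RNA libraries were read from a single table. The deposited values are whole numbers that are treated as estimated counts per gene, and rounding changed nothing. The value 2 is more frequent than 1, which rounding by the authors or separate counting of read mates could give. In the second case all printed depths and counts overstate the number of fragments. The submitters' processing notes name HISAT2 2.1.0, StringTie 1.3.3b, DESeq2 1.12.4 and GRCm39 with no roles. Handling of strand is not given in the sources used here. All value columns were used. Depth was 30205878 to 43498383 counts a library, and the common biological coefficient of variation was 10.6%.

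One edgeR 4.0.16 quasi-likelihood fit in R 4.3.3 covered all libraries (TMM scaling, minimum count 10 and minimum total 15, robust, 1 mean per group, no replicate block). P-values were Benjamini-Hochberg adjusted over 13332 genes, and called means an adjusted p under 0.05. Standard errors were derived from the log2 fold change and the F statistic of the test. The 95% intervals use the normal distribution and are somewhat narrower than that test would give. Exact permutation tests were 2-sided. The fit was tested on simulated data. Chromosomes, lengths, GC content and overlaps came from GENCODE M21 (GRCm38), which matched 21540 IDs and gave 99.7% of tested genes a value. Copies were sought at 95% identity over 400 bases. Neighbours were 10 tested genes on each side.

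Named genes were the members in every comparison, up to 3 called genes of each list with the largest change in the Nono KO and a mean of at least 1 CPM, and the 3 nearest in pattern to Nono, Sfpq and Pspc1. Members and lists were chosen with earlier results of these data known. Deviations of same-numbered replicates were correlated at no more than 0.0465. Alternatives were RLE scaling, library totals, DESeq2 1.42.0, other filters, fewer groups, a replicate block, a non-robust fit, chromosome or length and GC offsets, a fold minimum, other lengths, and leaving out each library.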

Additional observations from a re-analysis of the deposited data

How the results depend on the processing

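Over 22 alternatives, Nono and Pspc1 in the Nono KO kept their calls. The labels tie same-numbered replicates by number only and give no batch. Over 15 pairs of such libraries the correlation of deviations was -0.0226 to 0.0465, with 0 over 0.1. The replicate block left the called measured genes at 4 in each knockout and Pspc1 at 1.31 (adjusted p = 3.1e-08) in the Nono KO. Values whose sign turned are grouped here by setting, in log2, with causes not tested. With library totals alone they were -0.069 for Sfpq and -0.012 for Rbm14 in the Nono KO, -0.0050 for Tardbp in the Sox5 KO and 0.056 for Nono in Xap5 KO against Sox5 KO. With the chromosome offset they were 0.031 for Matr3 and 0.014 for Slc7a2 in the Nono KO, -0.055 for Nono and 0.024 for Slc7a2 in the Xap5 KO, 0.058 for Cpsf6, -0.0072 for Nudt21 and -0.26 for Cpsf7 in the Sox5 KO, -0.23 for Cpsf6 in Nono KO against Xap5 KO, 0.11 for Matr3 in Nono KO against Sox5 KO and 0.26 for Pspc1 in Xap5 KO against Sox5 KO. With the length and GC offset they were 0.079 for Rbm14 in the Xap5 KO, 0.041 for Pspc1, 0.32 for Matr3 and 0.19 for Cpsf6 in the Sox5 KO, and 0.14 for Nono in Xap5 KO against Sox5 KO. Matr3 in Nono KO against Sox5 KO was 0.00085 with RLE scaling, 0.0013 with DESeq2 and -0.067 to 0.033 with single libraries left out. The ranges without single libraries were -0.14 to 0.066 for Rbm14 in the Xap5 KO and -0.053 to 0.034 for Nono in Xap5 KO against Sox5 KO.

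The chromosome offset left 2 measured genes called in the Xap5 KO and 9 other paraspeckle proteins. Nuclear speckle calls were 8 in the Nono KO with library totals alone and 5 in the Xap5 KO with the length and GC offset. A log2 fold change of at least 1 left 2 measured genes in the Nono KO and 0 in the Xap5 and Sox5 KO, and 2, 2 and 0 in Nono KO against Xap5 KO, Nono KO against Sox5 KO and Xap5 KO against Sox5 KO. That minimum left 1, 0 and 2 other paraspeckle proteins in the Nono, Xap5 and Sox5 KO, and 0 cleavage factors and 0 nuclear speckle proteins in any of them. Without single libraries the calls ranged from 3 to 5 measured genes in Nono KO against Xap5 KO, 10 to 18 other paraspeckle proteins and 7 to 11 cleavage factors in the Nono KO, and 1 to 5 nuclear speckle proteins in the Xap5 KO. The Pspc1 share of the paralog sum was 2.87% in WT, 2.45% in the Xap5 KO, 11.0% in the Nono KO and 2.86% in the Sox5 KO by counts with no length, and 1.27%, 1.07%, 5.58% and 1.24% with the median transcript length. Where a WT library is left out, the lone WT library is assumed to vary like the other groups. Low genes such as Fign and Exoc6 are limited by depth.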
